A study of Caenorhabditis elegans with 2 samples.

Results

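The fatty acid desaturase and elongase genes fat-1, fat-2, fat-3, fat-4, fat-5, fat-6, fat-7, elo-2, elo-5 and elo-6 of Caenorhabditis elegans were examined for binding of the nuclear hormone receptor NHR-10. They are a named set of 10 among 19973 protein-coding genes on the 6 chromosomes, and all 10 were found in the annotation, 8 on chromosome IV and 2 on V. Binding was read from chromatin immunoprecipitation and sequencing (ChIP-seq) of whole larvae at L4, the last larval stage. The labels gave the sex as males and females pooled and the age as unknown. Both samples came from strain OP239 (unc-119(ed3) III; wgIs239), so all worms carried the unc-119 mutation and an inserted transgene for eGFP-tagged NHR-10. They formed 1 group of 2 biological replicates, and no untagged strain or second condition was analysed here. The measured protein was therefore the tagged product of a transgene in 1 strain, and whole animals do not show in which tissue a site was occupied.

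The ce11 lists of the authors held 21319 regions for replicate 1, 22317 for replicate 2, 17445 different regions for both replicates pooled, and 994 in a shorter list called optimal. By signal, the optimal list held exactly the top 994 of the pooled regions, and its lowest signal was 49.6. The signal is a value per region that the authors assigned, on a scale that is not stated, so regions were ranked within a list (rank 1 is the strongest) and signals were not compared between lists. Read depth was unknown, because the lists give no read counts. A region was tied to a gene where its summit lay inside the gene or within 5 kb of one of its transcript starts. Binding here means only that a region was listed.

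The genes encode enzymes that elongate and desaturate fatty acids. FAT-5, FAT-6 and FAT-7 place the first double bond in saturated fatty acids, FAT-5 mainly in palmitic acid and FAT-6 and FAT-7 in stearic acid, which gives oleic acid. FAT-2 turns oleic into linoleic acid, FAT-1 makes omega-3 from omega-6 fatty acids, and FAT-3 and FAT-4 act on the way to arachidonic and eicosapentaenoic acid. ELO-2 elongates palmitic acid, and ELO-5 and ELO-6 are needed for monomethyl branched-chain fatty acids. The intestine is the main site of fat synthesis in the worm, and nuclear hormone receptors such as NHR-49 and NHR-80 are known to control the stearic acid desaturase genes.

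Of the 10 genes, 7 had at least 1 optimal region, namely fat-1, fat-2, fat-3, fat-4, fat-5, fat-6 and elo-6. By the same rule 1860 of the 19973 protein-coding genes, or 9.31%, had one. Between them the 7 genes had 8 regions, and 3 of the genes had 2, since fat-1, fat-2 and fat-6 each had a pair. In this count 1 region was tied to both fat-1 and fat-2 and another to both fat-3 and fat-4. The pairs fat-1 and fat-2, fat-3 and fat-4, and elo-5 and elo-6 lie near each other on IV, so the 10 genes are not 10 independent observations. No optimal region was tied to fat-7, elo-2 or elo-5.

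The sequence at 5 of the 8 summits is shown, for the 4 summits with a GATA element nearby and for elo-6, whose region was the only one in the promoter of the outermost gene start. Each run is the 101 bp centred on the summit, plus strand of ce11, read from the WBcel235 reference of RefSeq. Capitals mark TGATAA, a form of the site bound by GATA factors such as the intestinal ELT-2, or its reverse complement TTATCA. Other forms of the GATA site were not searched.
fat-1 3' side, chrIV:13318864-13318964: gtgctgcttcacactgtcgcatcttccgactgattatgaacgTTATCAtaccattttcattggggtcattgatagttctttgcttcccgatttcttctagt
fat-1 upstream, chrIV:13314313-13314413: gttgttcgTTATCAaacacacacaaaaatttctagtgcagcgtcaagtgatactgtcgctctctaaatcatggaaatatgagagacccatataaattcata
fat-4 intron, chrIV:9801589-9801689: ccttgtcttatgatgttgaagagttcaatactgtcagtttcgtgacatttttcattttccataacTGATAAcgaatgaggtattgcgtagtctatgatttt
fat-5 upstream, chrV:17721875-17721975: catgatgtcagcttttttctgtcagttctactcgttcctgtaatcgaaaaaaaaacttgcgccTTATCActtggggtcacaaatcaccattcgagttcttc
elo-6 upstream, chrIV:5388842-5388942: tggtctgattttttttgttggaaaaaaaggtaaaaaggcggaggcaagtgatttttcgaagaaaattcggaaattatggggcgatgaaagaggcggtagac

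In the 101-bp windows TGATAA was present on either strand in 4 of the 8 regions, against 180 of all 994 optimal regions (18.1%) and 2228 of the 16451 other pooled regions (13.5%). The match nearest to a summit was at the fat-1 3' region, centred 5.5 bp away. The others were centred 15.5 bp (fat-5), 17.5 bp (fat-4) and 39.5 bp (fat-1 upstream) from the summit. The exact letters AGGTCA, a form of the nuclear receptor half-site, were found on neither strand in the 8 windows. They were in 35 of the 994 optimal regions (3.52%) and 532 of the other pooled regions (3.23%). At such shares 8 windows would hold few or none, and other forms of the half-site were not searched. The median GC content of the windows was 40.1% at the 8 regions, 44.6% over all optimal regions and 37.6% over the other pooled regions. These matches are descriptions of the letters in the window and were not tested.

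Among the first desaturases, fat-5 and fat-6 had optimal regions and fat-7 had none. The fat-5 gene spans chrV:17725004-17726818 on the plus strand. Its region, chrV:17721713-17722136, ranked 406 in the pooled list with a signal of 69.5. In replicate 1 it ranked 930 with a signal of 27.2, and in replicate 2 it ranked 308 with a signal of 42.7. Its summit was intergenic and 3079 bp upstream of fat-5, a similar distance as from str-77, a gene of a chemoreceptor family, whose start was 2978 bp away. At the fat-5 start itself a weaker pooled region ranked 2422, with its summit 3 bp upstream. That region ranked 4040 in replicate 1, and the one in replicate 2, at rank 4757, had its summit 1 bp downstream of the start. The strongest region tied to fat-5 was thus well away from the gene, while both replicates also listed a weaker one at its start.

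At fat-6, which spans chrIV:11913692-11915687 on the minus strand, the replicates placed their strongest regions differently. One optimal region, chrIV:11914876-11915299, ranked 468 with a signal of 65.5 and had its summit in a coding exon, 599 bp downstream of the outermost start and 79 bp downstream of the annotated start of a shorter transcript. It ranked 171 in replicate 2 with a signal of 52.5, and its summit there was at the same base. The best overlapping region of replicate 1 ranked 3089 with a signal of 17.4, and its summit was 102 bp away. The other optimal region, chrIV:11913346-11913769, ranked 793 with a signal of 53.9 and had its summit just past the 3' end of fat-6. Replicate 1 ranked it 451 with a signal of 34.9 and replicate 2 ranked it 3367 with a signal of 17.8. Replicate 1 also listed a region at rank 512 with its summit 171 bp upstream of the outermost start, between fat-6 and the divergent gene ZK822.9. The matching pooled region ranked 1201 with a signal of 46.3, below the lowest optimal signal, and the nearest region of replicate 2 ranked 4012. Neither optimal fat-6 region was thus strong in both replicates, and the coding-exon summit was also 859 bp upstream of ZK822.9.

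**Figure D1:**
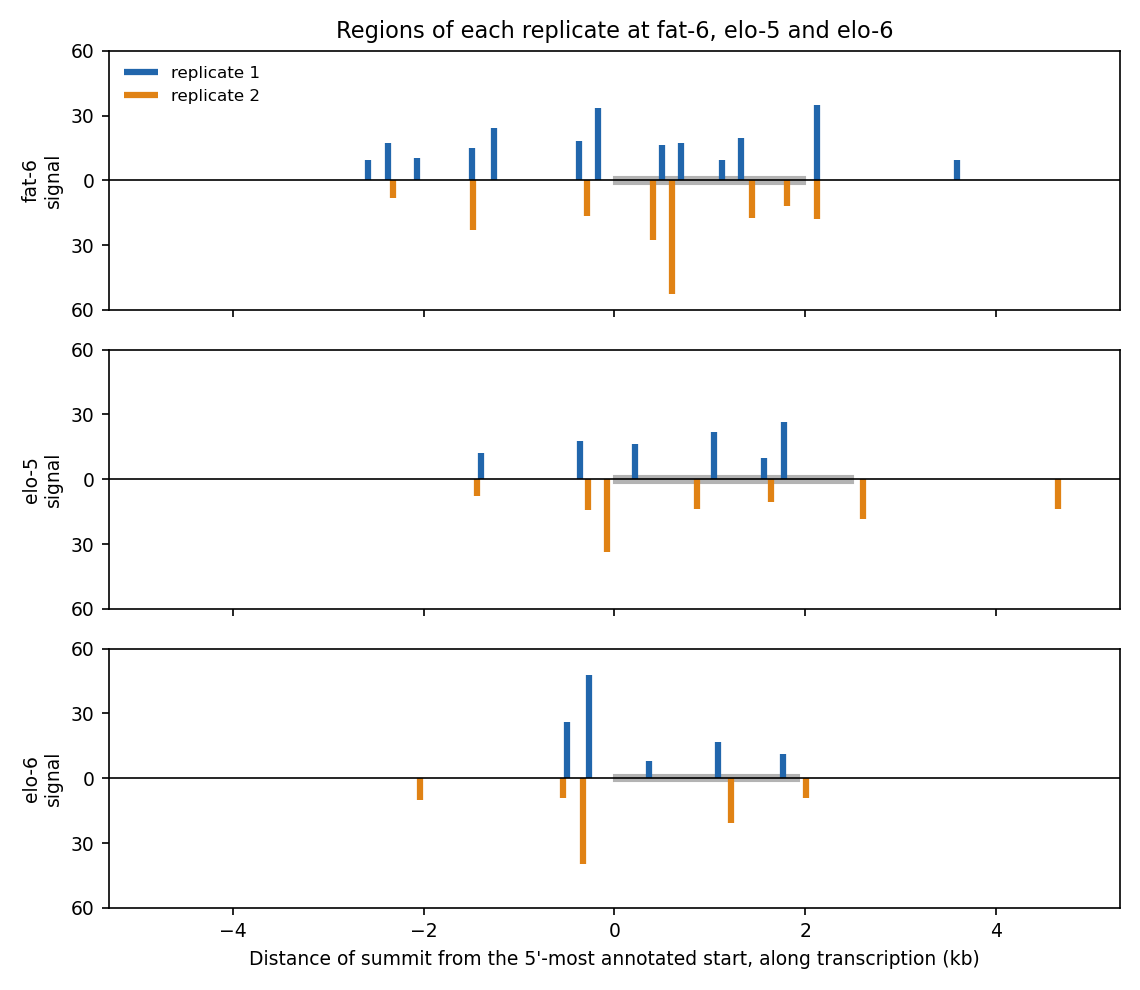
Regions of replicate 1 (blue, upward) and replicate 2 (orange, downward) at fat-6, elo-5 and elo-6, by the distance in kb of their summit from the outermost gene start (x axis) and the authors' signal (y axis, arbitrary units, not comparable between replicates). Grey bars are gene bodies. At fat-6 the tallest line of replicate 1 is at 2129 bp and that of replicate 2 at 599 bp, whereas at elo-6 they are at -270 and -333 bp.

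fat-7 (chrV:7151353-7153146, minus strand) had the weakest regions of the 10 genes. Only 1 pooled region was tied to it, at rank 17433 of 17445, and its summit was 7 bp from the start of the neighbouring gene F10D2.8. The strongest regions tied to fat-7 ranked 16690 in replicate 1 and 20158 in replicate 2, and neither overlapped a region of the other replicate. The optimal summit nearest to the fat-7 start was 59230 bp away. fat-7 and fat-6 are close copies, with 84.6% identical bases over 1013 aligned coding positions, so reads could in principle be shared between them. Of the 1759 stretches of 36 bases in the fat-7 gene, 0.853% had a second exact copy in the genome, and of those in fat-6 0.765% did. With 5 kb either side of the gene included, the share was 5.25% for fat-7 and 0.125% for fat-6. It was 5.33% for fat-1 and 8.97% for elo-6, which had optimal regions. The read length and the treatment of reads with several matches were not given in the sources used here, and their part in the low rank of fat-7 was not tested.

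In the pooled list and in replicate 2 the 2 strongest regions of the set had their summits between fat-1 and fat-2. In replicate 1 the elo-6 region ranked highest, at 175. fat-1 and fat-2 follow each other on the plus strand at chrIV:13315644-13318811 and chrIV:13323873-13326395. The region at chrIV:13318702-13319125 ranked 90 in the pooled list with a signal of 112.2. In replicate 1 it ranked 301 with a signal of 40.6, and in replicate 2 it ranked 60 with a signal of 71.8. Its summit was intergenic, just past the 3' end of fat-1, 3270 bp downstream of the fat-1 start and 4959 bp upstream of fat-2. In the 2 replicates the summits were 11 bp apart. The region at chrIV:13322440-13322863, 1221 bp upstream of fat-2, ranked 192 with a signal of 90.9. It ranked 593 in replicate 1 (signal 31.7) and 100 in replicate 2 (signal 62.5), so both regions stood higher in replicate 2. A further region, chrIV:13314151-13314574, lay 1281 bp upstream of fat-1 and ranked 681 with a signal of 57.2. It ranked 290 in replicate 1 (signal 40.8) and 1837 in replicate 2 (signal 22.4), so it was strong in replicate 1 only, and the replicates' summits were 112 bp apart.

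All 3 regions of the fat-1 and fat-2 locus had intergenic summits, and none of these was within 1000 bp upstream of a fat-1 or fat-2 start. Weaker pooled regions were listed at the starts themselves, at rank 5335 with the summit 13 bp downstream of the fat-1 start and at rank 6030 with the summit 61 bp upstream of the fat-2 start. fat-2 had 11 pooled regions tied to it, the most of the 10 genes.

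fat-4 (chrIV:9799429-9802226) and fat-3 (chrIV:9803023-9806119), also in tandem on the plus strand, shared 1 optimal region inside fat-4. This region, chrIV:9801427-9801850, ranked 347 in the pooled list with a signal of 74.1. It ranked 819 in replicate 1 (signal 28.6) and 294 in replicate 2 (signal 43.5), and the replicates' summits were 1 bp apart. Its summit lay in an intron of fat-4, 2210 bp downstream of the outermost fat-4 start, 266 bp upstream of the annotated start of the shortest fat-4 transcript, and 1384 bp upstream of fat-3. The next pooled region tied to fat-4 ranked 2311, 1562 bp upstream of the outermost fat-4 start and nearer to T13F2.2. At fat-3 the next ranked 3471, in an intron of fat-3 659 bp downstream of its start. Apart from the shared intron region, no region of the locus was among the 994 strongest of either replicate.

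Of the elongase genes in the set only elo-6 (chrIV:5386629-5388559, minus strand) had an optimal region. That region, chrIV:5388680-5389103, ranked 282 with a signal of 79.9. It ranked 175 in replicate 1 (signal 48.0) and 388 in replicate 2 (signal 39.7). Its summit was intergenic and 333 bp upstream of the only annotated elo-6 start. The summit of replicate 1 was 63 bp from it and that of replicate 2 at the same base.

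At elo-5 (chrIV:5374616-5377117, minus strand), the strongest pooled region was an intronic one at rank 2565, with a signal of 34.0. The strongest region of replicate 2, at rank 620 with a signal of 33.6, was 73 bp upstream of the elo-5 start. The best overlapping region of replicate 1 ranked 3043, and its summit was 293 bp away. The strongest region of replicate 1 ranked 1036 and lay in an intron 1774 bp downstream of the start, where the best overlapping region of replicate 2 ranked 12348. The nearest optimal summit was 11775 bp from the elo-5 start, at elo-6. Each replicate therefore had a fairly strong region at elo-5, but at different places.

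At elo-2 (chrIV:17466062-17467408, minus strand) the pooled list held regions just below the weakest optimal one. The strongest, at rank 1218 with a signal of 46.1, had its summit 3009 bp upstream of elo-2 but 63 bp upstream of F11E6.4. It overlapped a region at rank 920 in replicate 1. The strongest region of replicate 2 tied to elo-2, at rank 1163, overlapped the same pooled region. Its summit was 220 bp from that of the replicate 1 region. Replicate 1 had a stronger one, at rank 655 in a coding exon of F11E6.4, 2101 bp upstream of elo-2, which overlapped no region of replicate 2. The pooled region nearest to the elo-2 start ranked 6081, with its summit 1161 bp upstream.

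**Figure D2:**
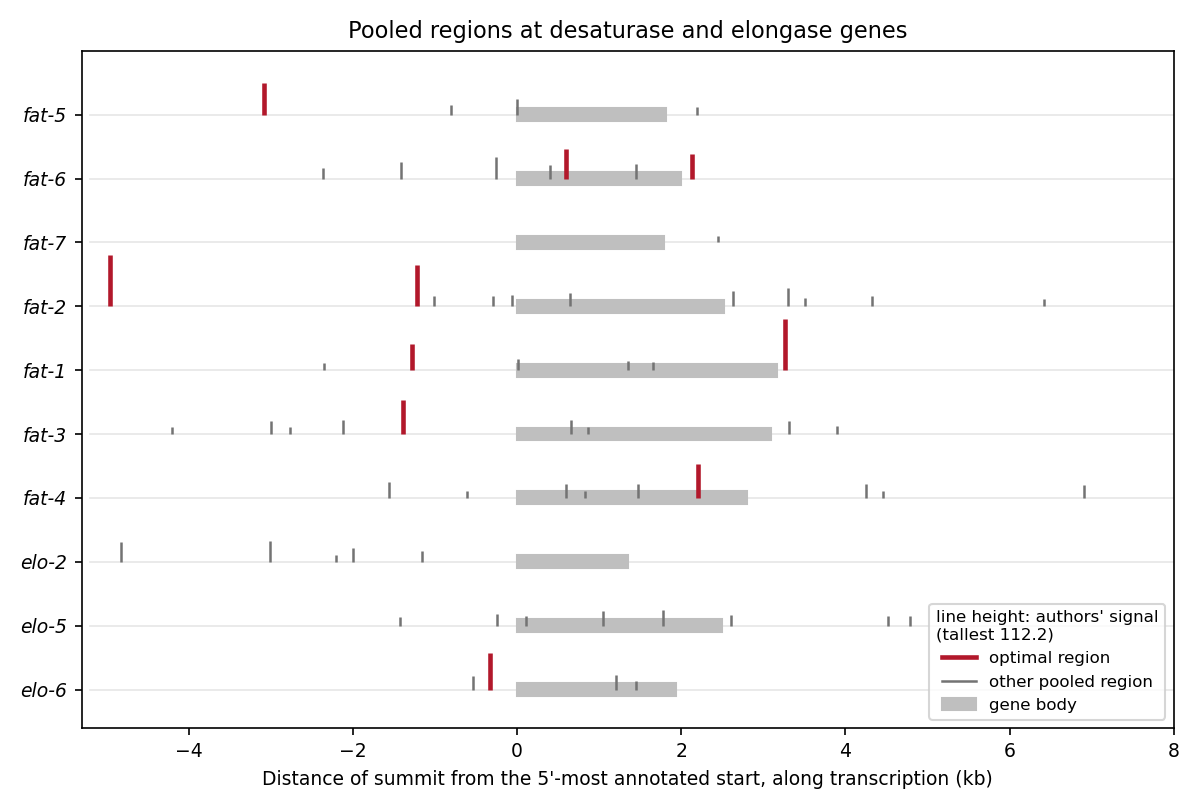
Pooled regions tied to each of the 10 genes, by the distance in kb of their summit from the outermost annotated start along the direction of transcription (x axis). Line height is the authors' signal, with 112.2 the highest, red lines are optimal regions, grey lines other pooled regions and grey bars gene bodies. A region tied to 2 genes appears in both rows, and fat-7, elo-2 and elo-5 have no red line.

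Of the 8 optimal regions, 6 had intergenic summits, 1 was in an intron and 1 in a coding exon. A summit fell in the promoter window of 3 genes, fat-4, fat-6 and elo-6, a window reaching 1000 bp upstream and 200 bp downstream of any annotated start. Over all protein-coding genes that share was 2.82%. For fat-4 and fat-6 it rested on the starts of shorter transcripts, which are annotated without a 5' UTR. With the outermost start of each gene alone, a choice made after seeing the data, only elo-6 had an optimal summit in the window, against 2.48% of all protein-coding genes.

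The count of 7 genes was less sensitive to the other settings. Within 2 kb of a start or inside the gene, 6 genes had an optimal region (all but fat-5 of the 7), against 5.1% of all protein-coding genes. Within 10 kb there were 7 (15.6% of all), and with any base of the region in place of the summit 7 (9.67%). With each region given only to the gene of nearest start, fat-3 and fat-5 dropped out and 5 remained (4.04%). With the 497 strongest optimal regions the count was 7 (4.92%), and with 5 kb measured from the outermost start 7 (9.15%). With the 1988 strongest pooled regions it was 8, with elo-2 added (16.4%).

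From the 994 strongest regions of replicate 2 alone 8 genes were reached, the 7 and elo-5 (8.97% of all genes). From those of replicate 1 alone there were also 8, the 7 and elo-2 (9.34%). With the optimal regions that were among the 994 strongest of both replicates, 6 genes were left, since fat-6 was lost (5.18%).

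In the unfiltered lists every one of the 10 genes had a region, against 69.8% of protein-coding genes in the pooled list, 78.9% in replicate 1 and 79.3% in replicate 2, so the presence of a region there says little. The rank of the strongest pooled region differed more. Its median was 376.5 over the 10 genes and 5565 over the 13934 protein-coding genes with a region. Except for elo-2, elo-5 and fat-7, with ranks 1218, 2565 and 17433, each of the 10 genes had a region at rank 468 or better. The 10 genes had a median of 6.5 pooled regions within the rule, against 1 for all protein-coding genes, over windows with the same median span of 10001 bp. The windows of fat-2, fat-3, fat-4 and fat-6 were wider, at 12137, 12699, 12477 and 11017 bp, and held 11, 9, 9 and 7 regions. Most of those of fat-3 and fat-4 were the same regions, and elo-5 had 8 in 10001 bp. The members' neighbourhoods were thus rich in listed regions of any strength, and the part of this in the count of 7 was not tested.

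**Figure D3:**
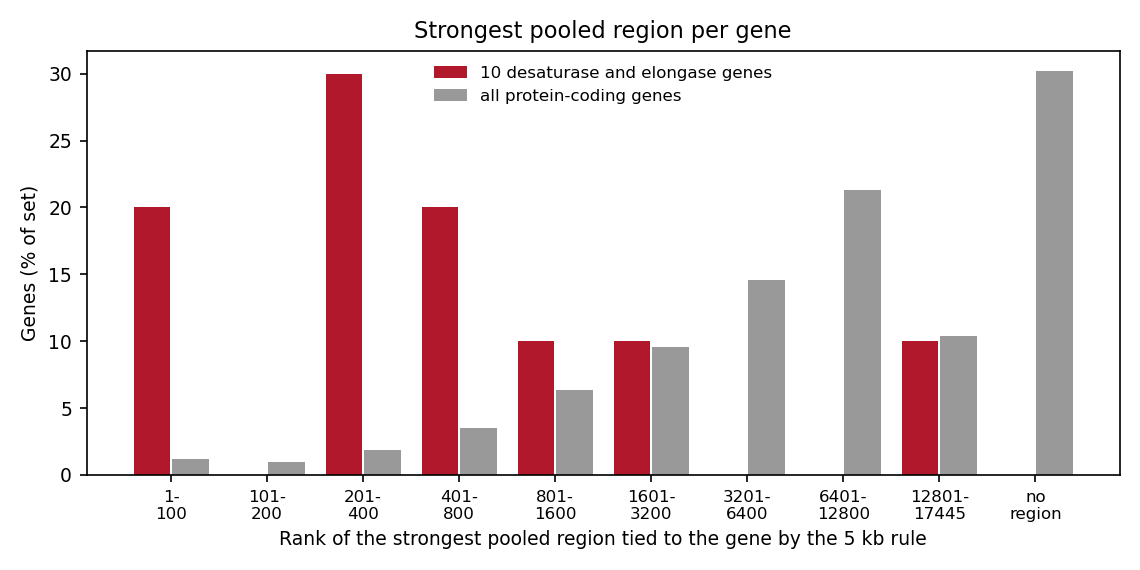
Share of genes (y axis, percent of the set) by the rank of the strongest pooled region tied to them by the 5 kb rule (x axis, bins of rank). Red bars are the 10 desaturase and elongase genes and grey bars all 19973 protein-coding genes. In the bins up to rank 800 lie 7 of the 10 genes, and 30.2% of all protein-coding genes have no region.

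Agreement between the replicates was moderate at these genes. Of the 8 optimal regions, 5 were strong in both replicates, meaning that they shared at least 1 bp with one of the 994 strongest regions of each. In replicate 1 alone 2 were strong, and in replicate 2 alone 1 was. Over the 992 optimal regions with a counterpart in both replicates, 537 (54.1%) were strong in both, 207 only in replicate 1 and 194 only in replicate 2. The larger of the 2 replicate ranks was between 2.2 times (elo-6) and 18.1 times (the fat-6 coding-exon region) the smaller, with a median ratio of 5.47 at the 8 regions and 2.27 over all 992. The median distance between the replicates' summits was 18.5 bp, and 40 bp over all 992. In 5 of the 8 regions the replicates' summits were at most 26 bp apart. Replicate 2 ranked 5 of the 8 higher, and over all 992 it ranked 49% higher. With 2 replicates no test of a difference between them was possible.

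**Figure D4:**
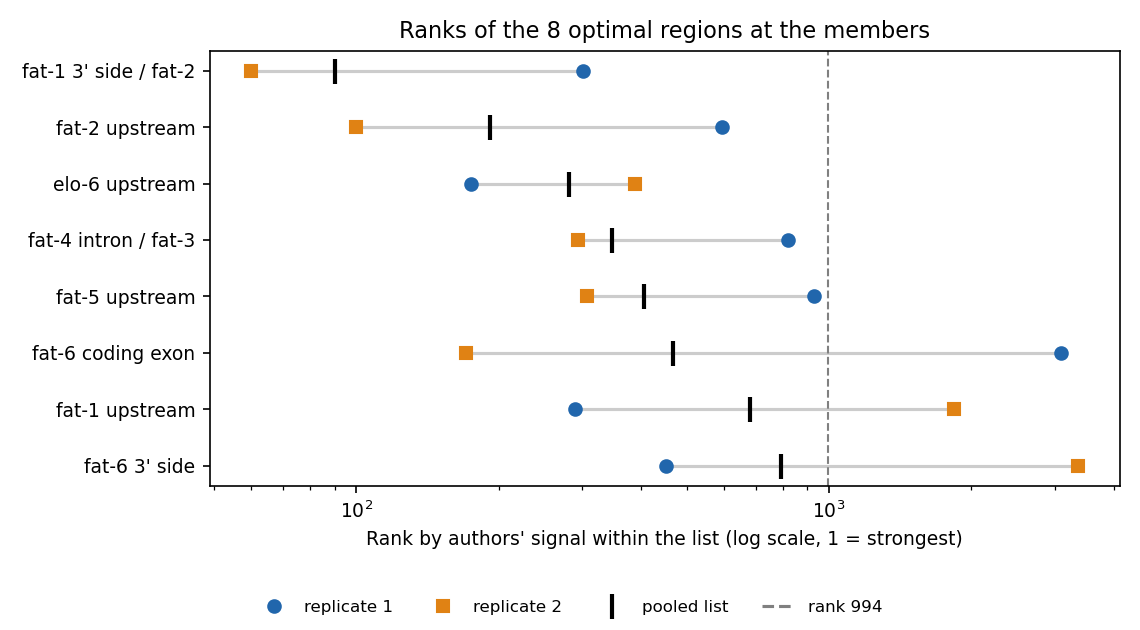
Rank by the authors' signal (x axis, log scale, 1 is the strongest) of each of the 8 optimal regions in replicate 1 (blue circles), replicate 2 (orange squares) and the pooled list (black ticks), with rank 994 as a dashed line. In 5 rows both replicates lie left of the line. The fat-6 coding-exon region reaches rank 3089 in replicate 1, and the fat-1 upstream and fat-6 3' regions reach 1837 and 3367 in replicate 2.

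Other genes of the pathway had optimal regions at a share near that of all genes. Of 22 genes in 4 lists, 3 (13.6%) had one by the 5 kb rule, against 9.31% of all protein-coding genes. In the promoter window 0 of the 22 had one, against 2.82% of all protein-coding genes, a share at which a list of this size would hold few or none. None of the 6 other elongase genes (elo-1, elo-3, elo-4, elo-7, elo-8 and elo-9) had one. The strongest pooled region at elo-1 and elo-7, which are neighbours, ranked 1107. Of the synthesis and chain extension genes 1 of 6 had one, let-767, which encodes a 3-ketoacyl-CoA reductase. Its region ranked 611, lay 4972 bp upstream and was nearer to trmt-10C.2. The genes for acetyl-CoA carboxylase, pod-2, and fatty acid synthase, fasn-1, had none, with strongest pooled regions at ranks 1057 and 5064, and hpo-8, art-1 and acs-1 had none either. The electron donor genes cytb-5.1, cytb-5.2, hpo-19 and T05H4.4 had none.

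Of 6 genes listed here as regulators of desaturase genes, 2 had optimal regions. Whether each of the 6 regulates them was not tested. mdt-15, a Mediator subunit gene, had regions at ranks 465 and 835, 4649 bp upstream of its start and 4833 bp downstream of it, both nearer to another gene. The region at rank 465 ranked 353 and 614 in replicates 1 and 2. nhr-66 had an intronic region at rank 801, 1954 bp downstream of a start, which ranked 1828 in replicate 1 and 1118 in replicate 2. The receptor genes nhr-49, nhr-80 and nhr-13 and the lipid transcription factor gene sbp-1 had none, and their strongest pooled regions ranked 1783, 4485, 4719 and 7495.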

How the data were processed

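ChIP-seq regions of whole L4 larvae, strain OP239, were taken as deposited for the ce11 build (WBcel235), as 1 list per replicate, 1 pooled list and 1 list thresholded by the irreproducible discovery rate. The labels give a fragment size range of 150 to 350 bp. Per the file descriptions deposited with the samples, every list of regions used the same control. The peak caller, aligner and thresholds were not given in the sources used here. The deposited signal (column 7) of the authors ranked regions within a list. The −log10 q-value deposited for each region was 3.43 in all 994 optimal regions and in 1335 pooled regions, and was not used to rank. The 2 repeated pooled entries were counted once. The lists of the ce10 build were not used.

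Genes came from Ensembl release 115 and sequence from the RefSeq copy of the same build. A replicate's region was the best-ranked one overlapping by at least 1 bp. Motifs were searched as exact letters on both strands, 50 bp either side of the summit. Coding sequences were aligned globally with Biopython 1.88, with Python 3.11.15 and matplotlib 3.10.9 elsewhere. Assignment of regions was checked on made-up genes with known answers. Members and lists were chosen with earlier results of these data known, so shares are set beside those of all protein-coding genes or all optimal regions without a test. Named were all members, the list genes with an optimal region, and genes nearer to a member's region or with its summit in their promoter window. Other neighbours, and list genes without an optimal region, were named after their values were seen.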

Additional observations from a re-analysis of the deposited data

How the results depend on the processing

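The count of 7 genes with an optimal region kept between 5 and 8 under 10 of 12 alternatives. It fell to 3 in the promoter window of any start (2.82% of all protein-coding genes). In the window of the outermost start, which has the same width, it fell to 1, elo-6 (2.48%). The summits at fat-4 and fat-6 lay 2210 and 599 bp downstream of their outermost starts. Leaving out either replicate gave 8. Of the 8 regions, 5 were strong in both replicates with a reciprocal overlap of 50% (48.8% of all optimal regions) or summits within 100 bp (45.1%). With 2 times as many strongest regions per replicate 6 of 8 were, a lower share than the 83.4% of all optimal regions. With the 497 strongest, a stricter cut that lowers the count by construction, 2 of 8 were (29.3% of all). The 2 regions tied to 2 genes were both strong in both replicates, and without them 3 of 6 were (54% of all). Neither share was above that of all optimal regions. TGATAA was found in 5 of 8 regions within 100 bp of the summit and in 3 within 25 bp, where all optimal regions had 32.2% and 10.6%. AGGTCA was found in 1 of 8 within 100 bp, against 6.04% of all optimal regions, and in 0 within 25 bp. The 3 pathway genes outside the set fell to 0 in the promoter window. The settings with outermost starts, with regions strong in both replicates, without shared regions and the promoter window for the pathway genes were chosen after seeing the data. No paired analysis was possible because the samples form 1 group. Unknown depth limits every absence to the regions listed.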
